A study of Mus musculus with 4 samples.

Results

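Group 2 innate lymphoid cells (ILC2s) carry receptors that raise or dampen their output of type 2 cytokines, and 10 genes of this kind outside the TNF receptor family were described in RNA sequencing libraries of activated lung ILC2s. They were taken by gene symbol from a fixed list: the inhibitory receptors Pdcd1, Klrg1, Cd200r1, Havcr2, Btla and Lag3, the costimulatory receptor Icos, and the ligands Icosl, Cd274 and Pdcd1lg2. All 10 were among the 22558 genes of the deposited count table, and 9 were among the 11711 genes that passed the filter on low counts and were tested. Lag3 did not pass. The libraries came from C57BL/6 mice that were wildtype (WT) or ICAM-1 KO, a constitutive knockout (B6.129S4-Icam1 tm1Jcgr/J) of the adhesion molecule ICAM-1 that all tissues of the animal carry. Mice of both groups were 6 weeks old and received 3 intranasal challenges with 0.5 µg recombinant mouse IL-33 (rmIL-33), and lungs were taken on day 4. No unchallenged mice entered the comparison. Each group had 2 libraries, each made from 10 ng of RNA of ILC2s sorted from a pool of 4 mice, so the spread between single animals was not measured. The sort gate took CD45+ lineage-negative cells with ST2 and CD127, and none of the 10 gene products was part of it.

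These molecules work in pairs. PD-1, encoded by Pdcd1, is engaged by PD-L1 (Cd274) and PD-L2 (Pdcd1lg2) and recruits phosphatases that oppose activating signals, while ICOS is engaged by ICOS ligand (Icosl) and signals through PI3 kinase. ILC2s are unusual in that they can carry both ICOS and ICOS ligand, and PD-1 and KLRG1 are known from activated ILC2s of the lung. BTLA, TIM-3 (Havcr2), LAG-3 and CD200R1 are further inhibitory receptors.

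The libraries held 24796148 to 28782471 estimated counts on genes. Icam1 itself (chromosome 9, 21015985 to 21028817, plus strand, mm10), the targeted gene, reached 2579 and 2630 counts in WT and 2812 and 3453 in the pair labelled ICAM-1 KO, hereafter the KO-labelled libraries. Its RNA was therefore not lower in them (log2 fold change 0.33, edgeR adjusted p = 0.0745), and gene counts do not show which exons were covered. The direction of every difference below rests on the labels. Of the 14 ILC2 marker genes, all had counts in every library, and their summed level was 9456 to 9900 CPM (counts scaled to the library total) in WT and 8226 to 8260 CPM in the KO-labelled libraries. Of these 14, Arg1, Id2, Il5, Il2ra and Il13 were lower and Ptprc was higher in the latter at an edgeR adjusted p under 0.05. Among all tested genes, 4.97% were called lower and 8.8% higher at this threshold.

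**Figure D1:**
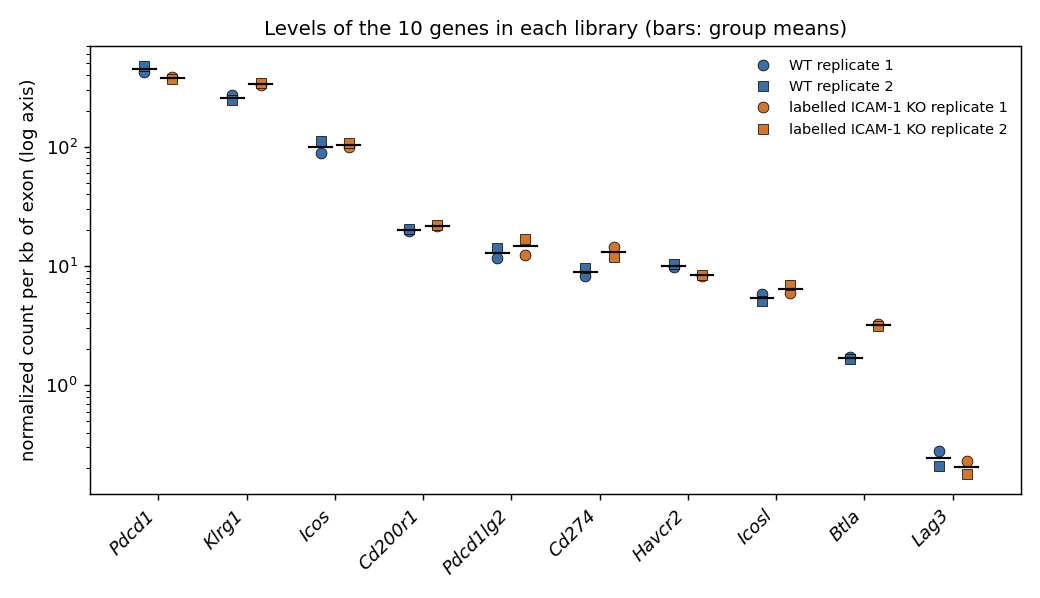
Level of each of the 10 genes in each of the 4 libraries, as the authors' normalized count per kilobase (kb) of exon on a log axis, with bars at the group means. Pdcd1, Klrg1 and Icos stand apart at the top, and Lag3 lies at the bottom between 0.181 and 0.282 per kb.

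Libraries of activated lung ILC2s held the RNA of 3 of these receptors at high level. These are bulk levels. Markers of T cells and dendritic cells also had counts in both groups, as given further below. The part of each cell type in these levels was not tested. Per kb of exon, Pdcd1 was the highest of the 10 with a mean normalized count of 415 over the 4 libraries, followed by Klrg1 at 297 and Icos at 102. In WT on this scale, Pdcd1 exceeded 99.2% of the 11414 tested genes with an exon length, Klrg1 exceeded 98.4% and Icos exceeded 95.1%. A wide step separated these from Cd200r1 at 20.8 per kb. The ligands and the remaining receptors were lower still. Pdcd1lg2 had 13.7 per kb, Cd274 had 11.05, Havcr2 had 9.23 and Icosl had 5.95. Btla, at 2.45 per kb, exceeded 18.9% of these tested genes in WT. Lag3 closed the order at 0.226 per kb, and its level in WT was above only 1.09% of them. Those genes had passed the filter on low counts, which Lag3 did not. The ranges over the 4 libraries overlapped for 2 pairs of neighbours in this order, Pdcd1lg2 with Cd274 and Cd274 with Havcr2. All other neighbours were separated in every library.

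Within the summed per-kb level of the 10 genes, Pdcd1 made up 50.6% and 53.1% in the WT libraries and 43.8% and 41.8% in the KO-labelled libraries. Klrg1 made up 32.1% and 27.5% in WT and 37.5% and 38.4% in the KO-labelled libraries. The share of Pdcd1 was thus lower, and that of Klrg1 higher, in both of the latter than in either WT library. Shares of a common sum are not independent, since a higher share of Klrg1 by itself lowers that of Pdcd1. Icos lay between 10.6% and 12.5% in all 4, with overlapping groups.

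Between the groups, 3 of the 9 tested genes were higher in the KO-labelled libraries and none was lower, when called at an adjusted p under 0.05 (quasi-likelihood test of edgeR, Benjamini-Hochberg adjustment over all genes tested). The higher genes were Klrg1, Cd274 and Btla. In the background of all tested genes, 8.8% were called higher and 4.97% were called lower. No member was called with a change of at least 2-fold, against 4.94% of all tested genes that were at least 2-fold higher. For the lower direction, 1 member (Pdcd1) had an unadjusted p under 0.05. DESeq2 also called 1 member lower, the same gene, and limma called 0. Over all 11711 tested genes, DESeq2 called 1261 higher and 930 lower, and limma called 963 higher and 761 lower. The median log2 fold change was 0.22 over the 9 members and 0.01 over all tested genes. Both KO-labelled libraries lay above both WT libraries for 5 of the 9 members, against 28.3% of all tested genes. They lay below for 2, Pdcd1 and Havcr2, against 31.3% of all tested genes.

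**Figure D2:**
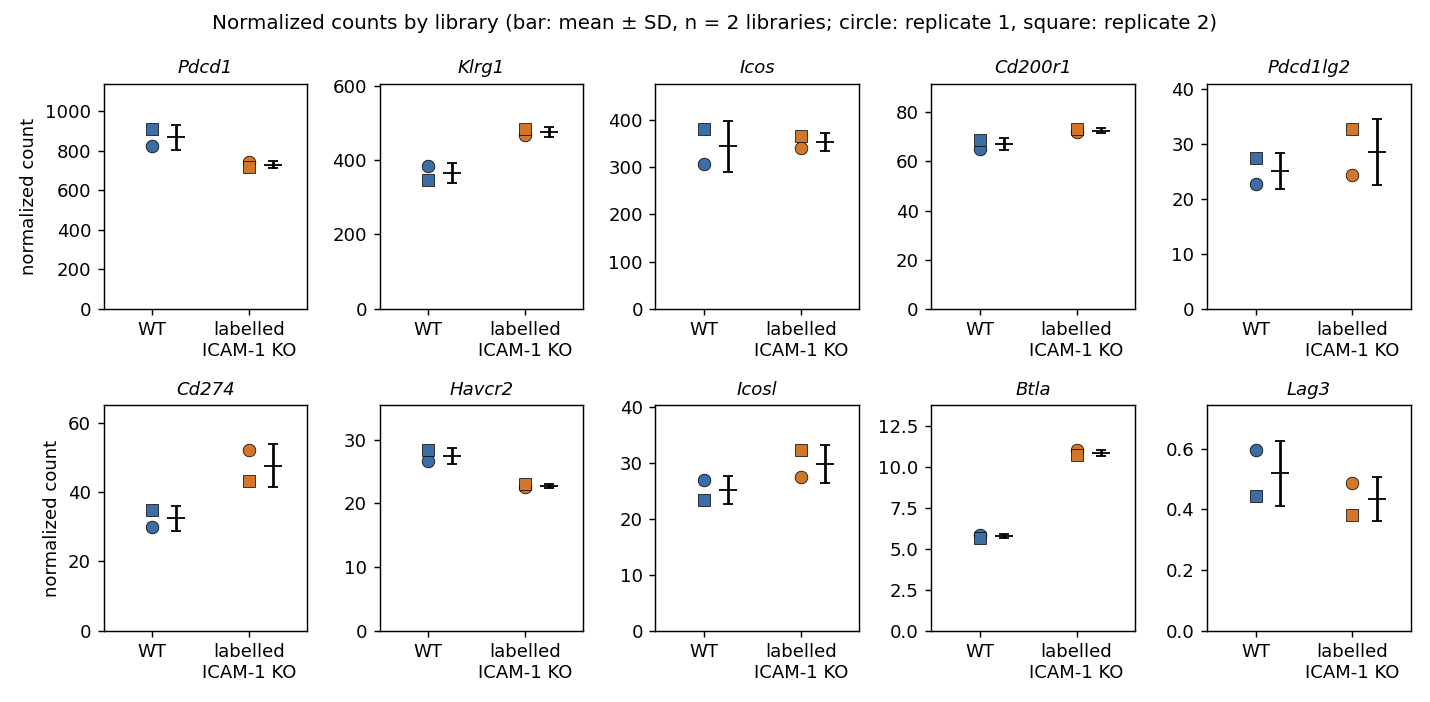
Normalized count of each of the 10 genes in each library, with the group mean and SD (n = 2 libraries) beside the points and every axis starting at 0. The groups do not overlap for Pdcd1, Klrg1, Cd200r1, Cd274, Havcr2, Icosl and Btla, and they overlap for Icos, Pdcd1lg2 and Lag3.

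Pdcd1 (chromosome 1, 94038305 to 94052553, minus strand, mm10), the gene of PD-1, had 24996 and 28829 counts in WT and 21418 and 22551 in the KO-labelled libraries. Its normalized count was 869 ± 62.0 (SD, n = 2) in WT and 731 ± 17.7 (SD, n = 2) in the KO-labelled libraries. Both values of the latter were below both WT values. The log2 fold change was -0.22 (SE 0.0853, 95% interval -0.42 to -0.03), with an edgeR adjusted p of 0.115, so the difference did not pass the threshold. DESeq2 gave an adjusted p of 0.0449 for the same gene.

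Klrg1 (chromosome 6, 122270596 to 122282882, minus strand), which encodes a lectin-like inhibitory receptor that binds cadherins, had 11636 and 10935 counts in WT and 13423 and 15196 in the KO-labelled libraries. The normalized count rose from 365 ± 26.8 (SD, n = 2) to 475 ± 12.9 (SD, n = 2), without overlap of the groups. This was a 1.33-fold higher level (95% interval 1.15 to 1.52), or 0.41 on the log2 scale (SE 0.0883, edgeR adjusted p = 0.0191). The adjusted p was 0.114 without WT replicate 2 and 0.0519 without ICAM-1 KO replicate 2. Without a filter on low counts it was 0.0826.

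Since Pdcd1 and Klrg1 lay on opposite sides, their ratio per kb was also taken, a measure chosen after the values were seen. Klrg1 reached 0.635 and 0.518 of the Pdcd1 level in the WT libraries and 0.855 and 0.920 of it in the KO-labelled libraries. This ratio restates the values of the single genes, of which Pdcd1 did not pass the threshold, and it was not tested.

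Btla (chromosome 16, 45224315 to 45257670, plus strand), the gene of an immunoglobulin-family inhibitory receptor that binds HVEM, had 176 and 178 counts in WT and 316 and 336 in the KO-labelled libraries. The 2 libraries of each group lay close together and the groups were well apart. The normalized count rose from 5.76 ± 0.124 (SD, n = 2) to 10.9 ± 0.188 (SD, n = 2), which was 1.93-fold (95% interval 1.27 to 2.93). The log2 fold change was 0.95 (SE 0.267, edgeR adjusted p = 0.0471), the largest among the 9 members tested and, of the 3 calls, the closest to the threshold. Leaving out any 1 library raised the adjusted p to between 0.125 and 0.139, and without a filter on low counts it was 0.0974. Tnfrsf14, the gene of its ligand HVEM, had 20 and 59 counts in WT and 19 and 26 in the KO-labelled libraries and was not tested.

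Havcr2 (chromosome 11, 46454935 to 46481255, plus strand), the gene of TIM-3, had 804 and 893 counts in WT and 649 and 720 in the KO-labelled libraries. Both of the latter were lower on the normalized scale, at 22.8 ± 0.289 (SD, n = 2) against 27.4 ± 1.23 (SD, n = 2). The log2 fold change of -0.24 (95% interval -0.61 to 0.12) did not pass the threshold (edgeR adjusted p = 0.349). Cd200r1 (chromosome 16, 44765736 to 44794978, plus strand), the receptor for CD200, had 1973 and 2165 counts in WT and 2067 and 2300 in the KO-labelled libraries. Its normalized counts of 66.9 ± 2.43 and 72.5 ± 1.08 (SD, n = 2 each) did not overlap, yet the log2 fold change of 0.14 (95% interval -0.10 to 0.39) was not past the threshold (edgeR adjusted p = 0.405).

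Lag3 (chromosome 6, 124904361 to 124911705, minus strand), whose product binds MHC class II, had 17 and 13 counts in WT and 13 and 11 in the KO-labelled libraries. With exact 95% Poisson intervals of 9.9 to 27.2 for the first of these counts and 5.49 to 19.7 for the last, no difference was seen, and counts this low leave a wide range of fold changes open. These intervals cover counting error only, since reads amplified by PCR and carrying no molecular identifier need not be independent molecules. In the fit without a filter its log2 fold change was -0.30 (edgeR adjusted p = 0.854).

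Icos (chromosome 1, 60977927 to 61000320, plus strand), the costimulatory receptor, had 9285 and 12057 counts in WT and 9807 and 11508 in the KO-labelled libraries. The WT pools enclosed both values of the other group. Normalized counts were 344 ± 53.2 and 354 ± 18.6 (SD, n = 2 each), and the log2 fold change was 0.07 with an interval of -0.19 to 0.32 (edgeR adjusted p = 0.743). Its sign turned to -0.08 without WT replicate 1. Icosl (chromosome 10, 78069302 to 78083913, plus strand), the gene of its ligand, had 813 and 736 counts in WT and 790 and 1010 in the KO-labelled libraries. The normalized count was 25.1 ± 2.50 (SD, n = 2) in WT and 29.8 ± 3.36 (SD, n = 2) in the KO-labelled libraries. The groups were apart on this scale, but the log2 fold change of 0.28 (95% interval -0.11 to 0.67) did not pass the threshold (edgeR adjusted p = 0.31). Per kb, Icos RNA exceeded Icosl RNA in the same library 15.4 and 22.1 times in WT and 16.7 and 15.3 times in the KO-labelled libraries. The receptor was thus the more abundant of the pair in every library, and the ratios of the groups overlapped.

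Cd274 and Pdcd1lg2, the genes of the PD-1 ligands, are neighbours on the plus strand of chromosome 19, from 29367455 to 29388095 and from 29410919 to 29471157. They differed in how they stood between the groups. Cd274 had 905 and 1102 counts in WT and 1497 and 1355 in the KO-labelled libraries. Its normalized count rose from 32.4 ± 3.55 (SD, n = 2) to 47.6 ± 6.22 (SD, n = 2), a 1.49-fold difference (95% interval 1.18 to 1.90) without overlap of the groups. On the log2 scale this was 0.58 (SE 0.152, edgeR adjusted p = 0.0378). The adjusted p was 0.152 without WT replicate 1, 0.0679 without WT replicate 2 and 0.178 without ICAM-1 KO replicate 1. Without a filter on low counts it was 0.128. AC119228.1, a gene on the opposite strand whose exons overlap those of Cd274, had no entry in the count table. Use of strand in the counting is not given in the sources used here, so reads of the pair could not be told apart.

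Pdcd1lg2 had 688 and 867 counts in WT and 699 and 1029 in the KO-labelled libraries. Its normalized counts of 25.1 ± 3.35 and 28.6 ± 6.02 (SD, n = 2 each) overlapped. The log2 fold change was 0.22 with an interval of -0.24 to 0.67 (edgeR adjusted p = 0.51), and it turned to -0.03 without ICAM-1 KO replicate 2. A test of the difference between the fold changes of these neighbours was not run. Per kb, Cd274 stood at 0.712 and 0.688 of the Pdcd1lg2 level in the WT libraries and at 1.16 and 0.713 in the KO-labelled libraries. Only ICAM-1 KO replicate 1 had more Cd274 than Pdcd1lg2. Against its receptor Pdcd1, the per-kb level of Cd274 was 0.0193 and 0.0204 in WT and 0.0372 and 0.0320 in the KO-labelled libraries. In all 4 libraries the receptor RNA far exceeded that of the ligand. These ratios were also chosen after the values were seen and were not tested.

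The sequence just upstream of the transcription start is shown for the PD-L1 and PD-L2 genes, since these neighbours share a locus but only 1 was called, and for Btla, the member with the largest fold change. RefSeq (GRCm38.p6) gave an upstream sequence for 6 of the 10 genes, and these 250 bases end at the base before its annotated start. They lie at chr19:29367188-29367437 for Cd274, at chr19:29410669-29410918 for Pdcd1lg2 and at chr16:45224087-45224336 for Btla, all on the plus strand and read 5′ to 3′. For Cd274 and Btla the RefSeq start differs from the gene coordinates given above. The Cd274 window stops short of 29367455, and the Btla window runs past 45224315. Capitals mark matches, on either strand, to the letters of 5 binding motifs of factors active in cytokine-stimulated lymphocytes.
Cd274: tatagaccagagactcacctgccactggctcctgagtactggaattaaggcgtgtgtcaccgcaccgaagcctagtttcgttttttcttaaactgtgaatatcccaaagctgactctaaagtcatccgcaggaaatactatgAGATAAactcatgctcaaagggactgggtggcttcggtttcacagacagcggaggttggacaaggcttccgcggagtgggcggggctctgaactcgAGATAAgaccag
Pdcd1lg2: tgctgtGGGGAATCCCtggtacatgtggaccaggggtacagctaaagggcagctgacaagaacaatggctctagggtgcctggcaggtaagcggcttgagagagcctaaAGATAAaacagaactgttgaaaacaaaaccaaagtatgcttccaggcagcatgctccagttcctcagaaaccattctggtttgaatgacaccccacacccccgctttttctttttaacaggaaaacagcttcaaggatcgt
Btla: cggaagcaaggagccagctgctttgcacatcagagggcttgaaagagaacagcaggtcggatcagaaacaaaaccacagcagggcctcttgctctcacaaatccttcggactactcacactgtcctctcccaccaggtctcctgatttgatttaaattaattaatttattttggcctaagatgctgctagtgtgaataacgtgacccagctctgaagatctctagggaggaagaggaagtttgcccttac
The motifs searched were TTCNNNGAA for STAT factors, a pair of GAAA separated by any 2 bases for interferon regulatory factors, GGG and CC separated by any 5 bases for NF-κB, TGANTCA for AP-1 and AGATAA for GATA factors. Cd274 held AGATAA at positions -108 and -12 from the RefSeq start. Pdcd1lg2 held it at -141 and held the NF-κB string at -244, while none of the 5 strings was in the Btla window. Of all 32851 RefSeq promoter windows of this length, 9.99% held AGATAA, 45.8% held the NF-κB string, 7.02% held TTCNNNGAA, 6.75% held TGANTCA and 2.98% held the interferon regulatory factor string. These matches describe letters and not bound sites.

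**Figure D3:**
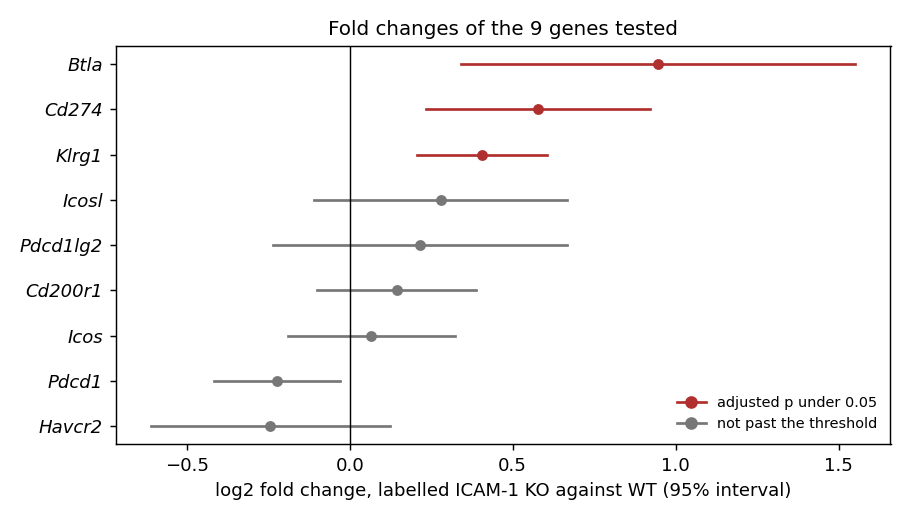
Log2 fold change of the 9 tested genes, KO-labelled libraries against WT, with 95% intervals from edgeR's quasi-likelihood fit. The intervals of Btla, Cd274 and Klrg1 lie above 0 with an adjusted p under 0.05, that of Pdcd1 lies below 0 with an adjusted p of 0.115, and those of the other 5 genes include 0.

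The adjusted p of the 3 calls lay between 0.0191 and 0.0471, and which of them held varied with the processing. TMM factors, DESeq2 and limma each called Klrg1, Cd274 and Btla higher. Without a filter on low counts none of them was called, and leaving out single libraries left 0 or 1. The direction of all 3 was the same in every fit.

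**Figure D4:**
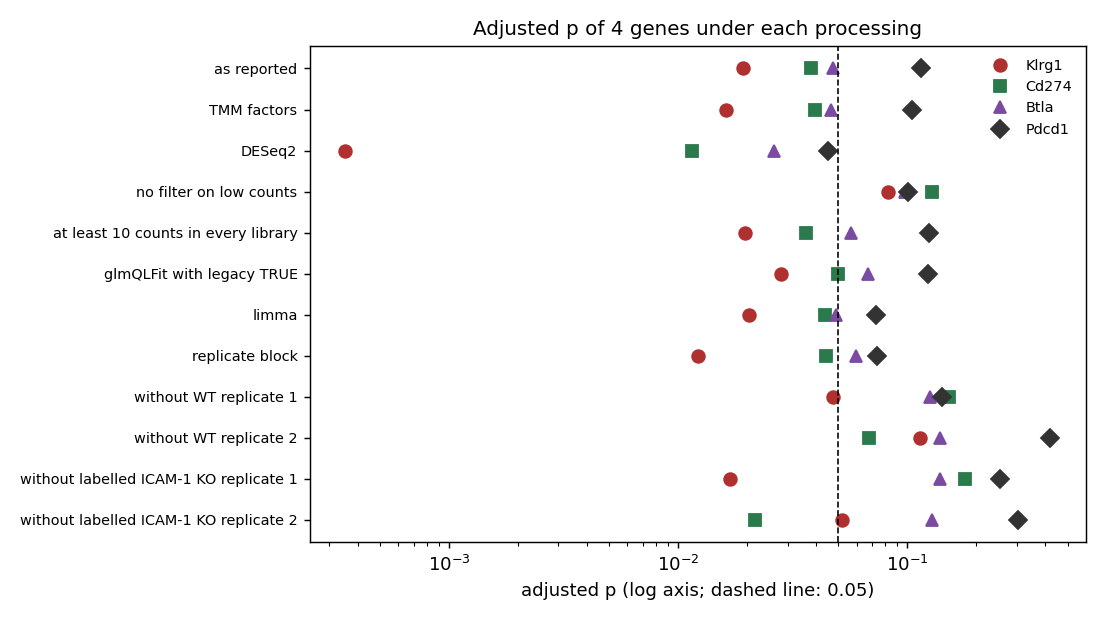
Adjusted p of Klrg1, Cd274, Btla and Pdcd1 on a log axis under the reported fit and each alternative, with the threshold of 0.05 as a dashed line. Klrg1 lies left of the line in most fits, while Btla lies right of it whenever a library is left out.

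The ligands, coreceptors and signalling molecules around these receptors were examined as a list of 46 genes, of which 43 were in the count table and 37 were tested. In the KO-labelled libraries, 8 of the 37 were higher, 6 of them at least 2-fold, and none was lower. The shares among all tested genes were those given above, 8.8% for higher calls and 4.97% for lower calls. Calls at least 2-fold higher made up 4.94% of all tested genes. For the lower direction, 1 gene of the list (Cdh2) had an unadjusted p under 0.05, and DESeq2 and limma each called 0. The median log2 fold change of the 37 was 0.21. Both KO-labelled libraries lay above both WT libraries for 20 of the 37, against 28.3% of all tested genes. They lay below for 4, against 31.3% of all tested genes.

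A receptor of the CD28 family and a ligand of it were among the genes called. Cd28, the costimulatory receptor of T lymphocytes, reached 769 and 1255 counts in WT and 2376 and 3288 in the KO-labelled libraries, a log2 fold change of 1.55 (SE 0.204, edgeR adjusted p = 0.00271). Cd80, a ligand of CD28 and CTLA-4 on antigen-presenting cells that also binds PD-L1, had 111 and 169 counts in WT and 337 and 442 in the KO-labelled libraries (log2 fold change 1.54, edgeR adjusted p = 0.0132). For Cd80 the adjusted p was 0.0692 without WT replicate 1 and 0.0529 without a filter on low counts. Every KO-labelled library was above both WT libraries for these genes, as for 28.3% of all tested genes. Ctla4, a neighbour of Cd28 and Icos on chromosome 1, was abundant in all libraries, with 8469 and 12307 counts in WT and 11218 and 13637 in the KO-labelled libraries. Its groups overlapped and its log2 fold change of 0.33 did not pass the threshold (edgeR adjusted p = 0.164). Ctla4 was called without WT replicate 2 (log2 fold change 0.59, edgeR adjusted p = 0.0370). Icos, in the same gene cluster, had the value of 0.07 given above.

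Among other inhibitory molecules, Vsir, the gene of VISTA, had 457 and 855 counts in WT and 1587 and 1902 in the KO-labelled libraries (log2 fold change 1.48, edgeR adjusted p = 0.00523). Tigit, a receptor for nectin-like ligands, had 489 and 756 counts in WT and 918 and 1088 in the KO-labelled libraries (log2 fold change 0.76, edgeR adjusted p = 0.0415). Ceacam1, which can bind TIM-3, had 202 and 195 counts in WT and 402 and 549 in the KO-labelled libraries (log2 fold change 1.32, edgeR adjusted p = 0.0133). For each of these, both KO-labelled libraries lay above both WT libraries, as for 28.3% of all tested genes. The call of Vsir held in every fit. That of Tigit was lost without WT replicate 1 (adjusted p = 0.156), without ICAM-1 KO replicate 2 (0.0882), with the older form of the edgeR fit (0.0509) and without a filter (0.131). That of Ceacam1 was lost without WT replicate 1 (0.0540), without WT replicate 2 (0.0629) and without a filter (0.0508). Cd200, the ligand of CD200R1, had 342 and 442 counts in WT and 744 and 1193 in the KO-labelled libraries, a log2 fold change of 1.37 (edgeR adjusted p = 0.00881), which was 0.0560 without WT replicate 1 and 0.0544 without a filter. The ligand was thus higher while the log2 fold change of its receptor, 0.14, did not pass the threshold. The difference between them was not tested.

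The paralogs of Cd200r1 were low. Cd200r3 had 212 and 184 counts in WT and 204 and 223 in the KO-labelled libraries (log2 fold change 0.17, edgeR adjusted p = 0.735). Cd200r4 had 58 and 83 counts in WT and 138 and 164 in the KO-labelled libraries (log2 fold change 1.16, edgeR adjusted p = 0.0782). Cd200r2 had 9, 0, 10 and 11 counts and was not tested. Estimated counts of these similar genes can share reads, and the values of Cd200r1 in the libraries were not whole numbers.

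Of 18 signalling genes, 2 were higher, against the 8.8% of all tested genes, and nothing is read from so small a count. Lck, a Src-family kinase of antigen receptor signalling, had 2504 and 3385 counts in WT and 5334 and 6581 in the KO-labelled libraries (log2 fold change 1.08, edgeR adjusted p = 0.00192). Fyn, a related kinase, had 3708 and 4313 counts in WT and 4947 and 5455 in the KO-labelled libraries (log2 fold change 0.44, edgeR adjusted p = 0.0189). The latter p became 0.0939 when WT replicate 1 was left out and 0.0854 when no filter was set. The phosphatase genes of the list did not pass the threshold. Ptpn6 (SHP-1) had a log2 fold change of 0.18 (edgeR adjusted p = 0.264), Ptpn11 (SHP-2) had 0.12 (edgeR adjusted p = 0.619) and Inpp5d (SHIP-1) had -0.01 (edgeR adjusted p = 0.95). Cmtm6, which keeps PD-L1 at the cell surface, had 0.18 (edgeR adjusted p = 0.214).

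**Figure D5:**
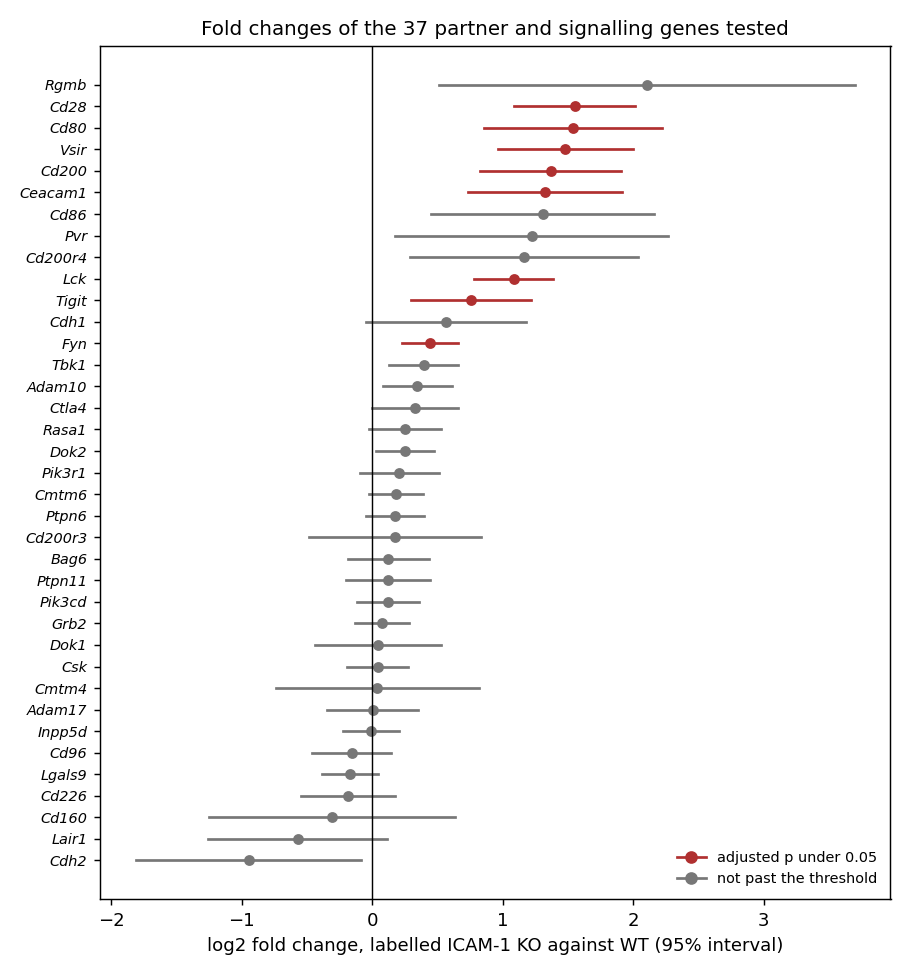
Log2 fold change of the 37 tested partner and signalling genes, KO-labelled libraries against WT, with 95% intervals from edgeR's quasi-likelihood fit. The 8 genes with an adjusted p under 0.05 are drawn in red, all of them above 0, and Cdh2 has the lowest value.

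Markers of other lung cells also differed between the groups. Calls on the marker lists use the same threshold, at which 8.8% of all tested genes were higher and 4.97% lower. All 9 endothelial markers were higher in the KO-labelled libraries, led in counts by Pecam1, Ramp2 and Vwf, with a summed level of 177 to 179 CPM in WT and 475 to 495 CPM in the KO-labelled libraries. Of 8 tested macrophage and monocyte markers 7 were higher, led by Lyz2, Cd14 and Csf1r, and the 9 listed summed to 285 to 292 CPM in WT and 626 to 915 CPM in the KO-labelled libraries. Dendritic cell markers were higher for 4 of 6 tested, Cd74 and H2-Ab1 with the highest counts among them, while Ccr7 (log2 fold change 0.13) did not pass the threshold (1051 to 1077 CPM in WT, 1718 to 1944 CPM in the KO-labelled libraries). B cell markers, led by Ms4a1, Cd79b and Cd79a, were higher for 4 of 6 tested (168 to 185 CPM in WT, 293 to 367 CPM in the KO-labelled libraries). These are cell types known to carry PD-L1, CD80 or BTLA.

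T cell markers were higher for 5 of 9 tested, namely Trac, Trbc1, Cd3d, Cd4 and Cd5. The other 4 did not pass the threshold. Of these, Trbc2, the marker with the highest count, had a log2 fold change of 0.25 (edgeR adjusted p = 0.0987), Cd3e had 0.17, Cd8a had -0.04 and Cd3g had -0.33. Cd3g, with an unadjusted edgeR p of 0.0465, was the only T cell marker below both WT libraries in both KO-labelled libraries. The 9 summed to 730 to 791 CPM in WT and 1101 to 1286 CPM in the KO-labelled libraries. Regulatory T cell markers, led by Tnfrsf9, Foxp3 and Ikzf2, were higher for 3 of 4 tested (167 to 259 CPM in WT, 495 to 604 CPM in the KO-labelled libraries). Regulatory T cells are known to carry CD28, CTLA-4, TIGIT, ICOS and, in part, KLRG1. Of their genes, Cd28, Tigit and Klrg1 were called higher in the reported fit, while Ctla4 and Icos did not pass the threshold. Of 2 NK cell markers tested, Klrb1c was higher and Prf1 did not pass the threshold, Ncr1 was not tested, and the list had sums of 9.99 to 14.0 CPM in WT and 19.3 to 28.1 CPM in the KO-labelled libraries. Epithelial markers were higher for 5 of 8 tested, namely Sftpc, Sftpb, Sftpa1, Lamp3 and Napsa, and the 9 listed summed to 232 to 490 CPM in WT and 675 to 1585 CPM in the KO-labelled libraries. Scgb1a1, which had the most counts of the list in WT, was not among them. It had 10248 and 4495 counts in WT and 3537 and 16018 in the KO-labelled libraries, with overlapping groups (log2 fold change 0.43, edgeR adjusted p = 0.651).

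Mesenchymal markers, with Col3a1, Col1a2 and Col1a1 the most counted, were called higher by edgeR for 0 of 4 tested, 1 of them had an unadjusted p under 0.05, and DESeq2 and limma each called 0 (12.2 to 46.8 CPM in WT, 38.4 to 82.7 CPM in the KO-labelled libraries). Eosinophil and basophil markers were higher for 1 (Ccr3) and lower for 2 (Epx and Prg2) of 6 tested. Prg2 had 1583 and 1041 counts in WT and 33 and 118 in the KO-labelled libraries (log2 fold change -4.06, edgeR adjusted p = 0.000711). The basophil and mast cell genes Cpa3, Mcpt8 and Fcer1a did not pass the threshold. The sums of the list were 492 to 579 CPM in WT and 526 to 694 CPM in the KO-labelled libraries, and Epx had 1027 and 739 counts in WT and 0 in both of the latter. No other marker of these lists was at 0 in every library of a group. The lineage antibodies of the sort, among them CD3ε, CD4, CD5, CD45R, CD11b, CD11c and FcεRIα, which mark T cells, B cells and myeloid cells, were used to leave such cells out, and all cells were gated on CD45. The part of these marker differences in the values of Klrg1, Cd274, Btla and the 8 partner and signalling genes was not tested. In bulk libraries, a change in the number of cells of a type and a change in RNA per cell cannot be told apart.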

How the data were processed

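RNA of sorted lung ILC2s was turned into cDNA with a low-input SMARTer kit, and the authors aligned the reads to mm10 with STAR and GENCODE M20 and estimated gene counts in Partek. The deposited expected counts (56.7% of values within 0.001 of a whole number) are not normalized. The deposited normalized signal, from upper quartile scaling, equals the count plus 1 times 1 factor per library. Groups and replicate numbers were taken from the labels. Counts were rounded and tested with edgeR 4.0.16 (glmQLFit with legacy FALSE, upper quartile factors, no covariate) in R 4.3.3, over the genes that met the study's own filter, which asks for normalized counts that average 1 or more and sum to 10 or more. The authors' differential test in Partek (GSA) was not run. DESeq2 1.42.0 and limma 3.58.1, the latter on log2(normalized count + 1), were alternatives beside TMM factors, other filters, legacy TRUE, a replicate block and leaving out each library. Levels per kb divide normalized counts by the exon length in GENCODE M21. The study exempts its RNA sequencing from the repeats made of its other experiments, so p-values rest on these samples alone. With 2 libraries per group, the tests estimate the spread of a gene partly from the other genes. The 10 genes and all lists were chosen with earlier results of these data known. Genes named are Icam1, the 10 members, partner or signalling genes with an adjusted p under 0.05, listed neighbours of members, and the 3 most counted genes of each marker list with any at 0 in a whole group. Arg1, Id2, Il5, Cd3d, Cd3e, Cd3g, Cd4, Cd5, Cd8a, Sftpb, Lamp3, Napsa, Ccr3, Prg2, Cd86, Pvr, Rgmb, Il2ra, Il13, Ptprc, Cdh2, Tnfrsf14, Ptpn6, Ptpn11, Inpp5d and Cmtm6 were named after their values were seen.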

Additional observations from a re-analysis of the deposited data

How the results depend on the processing

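The count of members called higher was 3 in the reported fit, with TMM factors, with DESeq2 and with limma. It was 2 with at least 10 counts in every library and with legacy TRUE, where Btla was lost, 0 among the 22158 genes tested when no filter was set, and 0 to 1 when 1 library was left out. Klrg1 was the gene called without WT replicate 1 or without ICAM-1 KO replicate 1, and Cd274 without ICAM-1 KO replicate 2. The count of members called lower was 0, and 1 with DESeq2, which called Pdcd1. Partner and signalling genes called higher numbered 8, against 3 without a filter (Cd28, Lck and Vsir), and 3 to 11 when 1 library was left out, with the 3 without WT replicate 1 being the same genes. Of this list 0 to 1 were called lower when 1 library was left out, the 1 being Cdh2 without ICAM-1 KO replicate 1. The fold changes that turned their sign were those of Icos, -0.084 to 0.23 over the fits without 1 library, and of Pdcd1lg2, -0.032 to 0.42. Over all genes, 1030 higher and 582 lower calls became 334 and 201 without a filter, 930 lower with DESeq2, and 479 to 948 higher and 158 to 388 lower when 1 library was left out. Where a library was left out, the lone library of its group was assumed to vary like the others. Fits without a filter tested more genes and fits without a library used fewer samples, and other causes were not tested.

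Both groups carry replicate numbers 1 and 2, and the labels do not name a pairing. Same-numbered libraries did not deviate together across all tested genes (r = -0.06). This single value cannot exclude a pairing that acts on part of the genes. The reported fit used none. With the replicate number as a block, 2 members were called higher, since Btla had an edgeR adjusted p of 0.0594, and 12 partner and signalling genes were called higher, the 8 of the reported fit with Cd86, Ctla4 (edgeR adjusted p = 0.0346), Pvr and Rgmb.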
